A study of Mus musculus with 16 samples.

Results

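The genes described here code for proteins of the glutamatergic synapse: the vesicles that carry glutamate, the machinery that fuses them with the membrane, the receptors that detect the transmitter and the scaffolds that hold those receptors. They are 40 of the 49671 gene rows of a count table from mouse hippocampus, found by matching the Ensembl identifiers of the rows to a list of gene symbols. Of these genes, 17 are presynaptic and 23 postsynaptic. Bulk RNA was sequenced from the hippocampus of 8-month-old female mice in 16 libraries, 4 in each of 4 groups. PS19_p16KO mice carried the PS19 transgene and lacked p16. PS19 mice carried the transgene with p16 intact, p16KO mice lacked p16 without the transgene, and WT mice had neither change. PS19 is a transgene for human tau with a disease mutation, driven by the promoter of the mouse prion protein gene Prnp, so it adds a transgene product to a mouse that keeps its own tau. The p16 protein is an inhibitor of the cell cycle that marks senescent cells. The labels give neither the exons removed in the knockout nor the genetic background. The labels do not state that each library is from a different mouse, and the p-values below therefore cover only the spread among these libraries, which may be technical.

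At an excitatory synapse, glutamate is loaded into vesicles by vesicular transporters, and calcium entry makes the SNARE proteins fuse a vesicle with the membrane at the active zone. On the other side of the cleft, AMPA receptors carry the fast current, NMDA receptors admit calcium when glutamate and depolarisation coincide, and CaMKII and the postsynaptic scaffolds set how many receptors stay in place. Loss of synapses is a known feature of mouse models that make mutant tau, and in the hippocampus the mossy fibres of dentate granule cells are known for vesicles that also hold zinc.

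Promoter windows are shown for Slc30a3, the only member that passed the test in any of the comparisons below, and for Stx1a, the member with the next smallest p in the comparison concerned. Each window runs from 250 bases before to 50 bases after an annotated start, is read 5′ to 3′ on the strand of the gene, and comes from RefSeq on GRCm38.p6. The upstream start of Slc30a3 lies in chr5:31108195-31108494 on the minus strand, its inner start in chr5:31093478-31093777 on the minus strand, and the start of Stx1a in chr5:135023232-135023531 on the plus strand. Capitals mark the letters of 3 short motifs searched on both strands, the GC box GGGCGG, the TATA box TATAAA and the CCAAT box CCAAT, which reads ATTGG where it lies on the other strand, and no match of one motif overlapped a match of another in these windows.
Slc30a3 upstream start: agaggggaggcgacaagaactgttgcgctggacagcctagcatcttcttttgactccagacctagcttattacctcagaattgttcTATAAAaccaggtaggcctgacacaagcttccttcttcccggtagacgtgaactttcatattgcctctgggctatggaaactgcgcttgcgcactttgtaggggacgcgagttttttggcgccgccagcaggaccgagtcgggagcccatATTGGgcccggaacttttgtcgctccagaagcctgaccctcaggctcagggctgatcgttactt
Slc30a3 inner start: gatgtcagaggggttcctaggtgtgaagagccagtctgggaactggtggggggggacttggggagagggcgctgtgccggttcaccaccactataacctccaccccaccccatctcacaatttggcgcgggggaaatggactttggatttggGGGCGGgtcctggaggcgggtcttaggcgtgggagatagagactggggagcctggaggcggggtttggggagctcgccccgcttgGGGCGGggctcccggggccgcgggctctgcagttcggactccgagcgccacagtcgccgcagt
Stx1a start: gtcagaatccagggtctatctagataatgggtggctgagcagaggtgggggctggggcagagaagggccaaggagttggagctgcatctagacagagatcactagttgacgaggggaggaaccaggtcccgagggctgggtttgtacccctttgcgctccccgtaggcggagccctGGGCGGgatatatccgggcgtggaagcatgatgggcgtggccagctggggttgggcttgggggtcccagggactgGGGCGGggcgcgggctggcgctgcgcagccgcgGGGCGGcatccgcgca
The upstream window of Slc30a3 held 1 TATA box, 1 CCAAT box and no GC box, and 53.3% of its bases were G or C. Its inner window held 2 GC boxes, and the Stx1a window 3, each with 66.3% G and C. Among the 32851 windows of all genes in the RefSeq table, 35.7% held a GC box, 13.6% a TATA box and 37.4% a CCAAT box. RefSeq windows were matched to 28 of the 40 members, 46 windows in all, of which 21 held a GC box, 4 a TATA box and 11 a CCAAT box. These matches describe letters only and say nothing of which factors bind or which start is used.

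Libraries held between 18485552 and 22311322 gene counts, and levels are given as CPM, the count of a gene relative to the gene counts of its library after TMM scaling, a correction for differences in composition. Cdkn2a, the gene of p16 and of another product, had 2 counts in all over the PS19_p16KO libraries, 18 over PS19, 3 over p16KO and 8 over WT, so it was near the detection limit in every group. Prnp, whose promoter drives the transgene, lay between 1501 and 1964 CPM in the libraries with the transgene and between 988 and 1076 CPM in those without it. All 12 dentate gyrus markers and all 12 CA pyramidal markers listed for the tissue were detected. A choroid plexus marker list, in contrast, summed to 9190 CPM in PS19_p16KO 3, to 5852 CPM in p16KO 4 and to 1665 CPM in WT 1, against 192 to 472 CPM in the other 13 libraries. All 12 choroid plexus markers were detected, and the libraries that hold more of them were kept. PS19_p16KO 3 and PS19 2 also stood low in many members, as described with the values per library below.

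All 40 members passed the filter on low counts and were among the 16372 genes tested. Together they took up 2.80% of the gene counts. Per kilobase of merged exon, which allows levels of different genes to be compared, presynaptic members had a median of 164 CPM per kb and postsynaptic members a median of 27.7 CPM per kb, against 4.08 CPM per kb for all genes tested. Merged exons can be longer than the transcript in use, so levels of genes with many isoforms are low estimates. The highest member was Camk2a, the alpha subunit of the kinase CaMKII, at 587 CPM per kb. It was followed by Cplx2, a complexin that clamps and promotes fusion, at 413 CPM per kb, and by Slc17a7, the vesicular glutamate transporter VGLUT1, at 331 CPM per kb. The SNARE Snap25 stood at 307, the complexin Cplx1 at 280, the vesicle SNARE Vamp2 at 275, and the vesicle protein Syp, synaptophysin, at 267 CPM per kb. Gria1, an AMPA receptor subunit, was the next postsynaptic member at 226 CPM per kb. At the low end, the neuroligin Nlgn3 was the lowest postsynaptic member with 6.48 CPM per kb. Nlgn3 shares 3823 of its 9271 exon bases with Gm21986 on the same strand. Reads that fall in both genes may have been left uncounted, so the level and rank of Nlgn3 may be too low. In all, 20 members share exon bases with another gene of the count table. Slc17a6, the transporter VGLUT2 of thalamic and some other long-range inputs, was the lowest of all with 3.33 CPM per kb and the only member below the median of the genes tested.

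**Figure D1:**
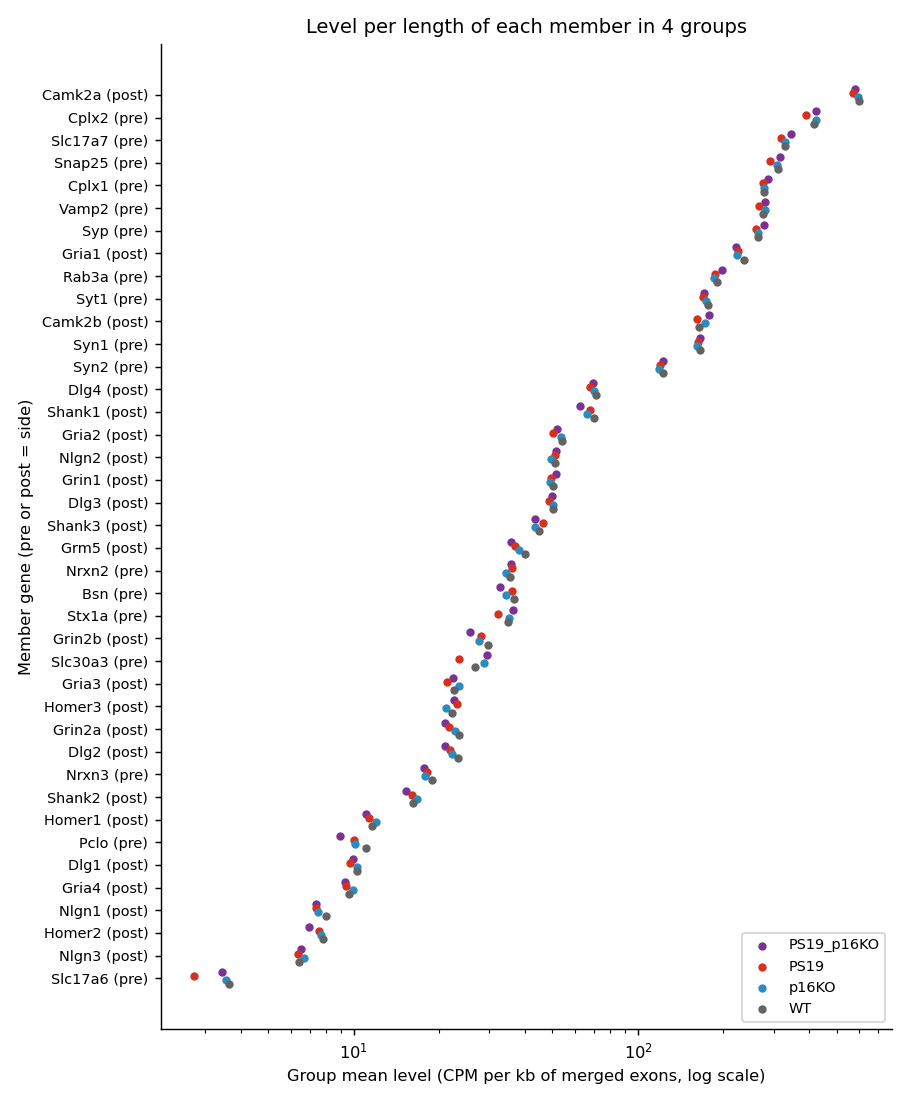
Mean level of each of the 40 members in PS19_p16KO, PS19, p16KO and WT, in CPM per kilobase of merged exon on a log axis, with members ordered by their mean over all libraries and each point the mean of 4 libraries. Group means span 2.74 CPM per kb (Slc17a6 in PS19) to 601 CPM per kb (Camk2a in WT). The 4 groups of most members lie close together, while those of Slc17a6 run from 2.74 in PS19 to 3.62 CPM per kb in WT.

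Levels per library are given for the members at the ends of this range. Camk2a had 4512, 4688, 3862 and 4241 CPM in PS19_p16KO, against 4105, 4084, 4221 and 4714 CPM in PS19. It had 4571, 4771, 4226 and 4139 CPM in p16KO, against 4474, 4405, 4604 and 4458 CPM in WT. All 4 groups overlapped, and the lowest value of Camk2a was in PS19_p16KO 3. Nlgn3, a neuroligin of excitatory and inhibitory contacts, had 60.4, 63.4, 59.7 and 58.2 CPM in PS19_p16KO and 62.0, 55.7, 60.7 and 57.3 CPM in PS19. The p16KO libraries had 67.7, 57.2, 63.8 and 58.4 CPM of Nlgn3 and the WT libraries 61.7, 60.3, 57.8 and 57.7 CPM, again with overlap of all groups. Slc17a6 had 20.2, 14.4, 9.69 and 29.6 CPM in PS19_p16KO, 17.1, 17.8, 14.1 and 10.2 CPM in PS19, 20.9, 16.7, 23.3 and 15.6 CPM in p16KO, and 18.7, 24.5, 14.3 and 20.8 CPM in WT. It was the most variable member in every group, with a coefficient of variation of 46.5% in PS19_p16KO, 23.4% in PS19, 18.8% in p16KO and 21.8% in WT. The median over the members was 8.29% in PS19_p16KO, 7.51% in PS19, 4.89% in p16KO and 5.88% in WT, each below the median of all genes tested, which ran from 8.55% to 9.79%. A list of 12 thalamic markers, all detected, summed to 181 to 198 CPM in PS19_p16KO, 176 to 276 CPM in PS19, 191 to 233 CPM in p16KO and 163 to 274 CPM in WT. Some of these markers were near the detection limit, such as Slitrk6 with group means of 0.54 to 0.91 CPM and Tnnt1 with 0.40 to 1.15 CPM. The part of the thalamic list in the spread of Slc17a6 was not tested.

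Shares of members within their gene families are given next, as descriptions with no test. Per kilobase, Gria1 made up 72.6% ± 0.872 (SD, n = 4) of the 4 AMPA receptor subunits in PS19_p16KO, 73.5% ± 1.19 in PS19, 71.9% ± 0.880 in p16KO and 73.2% ± 0.866 in WT. Gria2, the subunit that limits calcium entry, was next with means between 16.4% and 17.3%. Shares per kilobase depend on the merged exon length, which was 15548 bases for Gria2 and 6043 bases for Gria1. Before division by length, Gria2 had a mean of 816 CPM over all libraries and Gria1 one of 1367 CPM. The shares in this paragraph are therefore not a measure of subunit composition. Grin2a, the NMDA receptor subunit of mature synapses, made up 45.2% ± 1.93 of the sum of Grin2a and Grin2b in PS19_p16KO, 43.5% ± 2.72 in PS19, 45.3% ± 0.725 in p16KO and 44.2% ± 2.43 in WT. Slc17a7 made up between 98.9% and 99.1% of the sum of both vesicular glutamate transporters listed, as group means. Dlg4, which encodes the scaffold PSD-95, was the largest of the 4 MAGUK scaffolds with group means of 45.7% to 46.2%. Nlgn2, the neuroligin of inhibitory synapses, was the largest neuroligin with 77.7% to 78.8%. Between groups compared here, the shares of 2 families held members without overlap. Camk2a made up 77.3% to 77.7% of the sum of Camk2a and Camk2b in p16KO, against 77.9% to 79.5% in WT, so that Camk2b had the larger share in p16KO. Dlg2, of the MAGUK scaffolds, made up 13.1% to 14.3% in PS19_p16KO, against 14.4% to 15.3% in PS19. The shares of the other members in these families overlapped between the groups compared. Such shares were not computed over all genes. Gene levels did not overlap in 2.94% of genes tested in p16KO against WT, and in 4.08% in PS19_p16KO against PS19. With many shares looked at, these 2 cases are not read as a result for either family.

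The comparison of PS19_p16KO with PS19 asks what loss of p16 does in mice with the tau transgene. Slc30a3, which encodes the zinc transporter ZnT3 that loads zinc into glutamatergic vesicles, was higher in PS19_p16KO, and it was the only member called. Slc30a3 (ENSMUSG00000029151, chr5:31086106-31108237) had 81.8, 80.1, 86.6 and 83.7 CPM in PS19_p16KO, against 62.3, 56.0, 73.4 and 73.4 CPM in PS19. The lowest PS19_p16KO library stood above the highest PS19 library. It rose 1.25-fold, a log2 fold change of 0.33 ± 0.08 (SE) with a 95% interval of 0.17 to 0.49 (edgeR quasi-likelihood test, adjusted p = 0.0477, unadjusted p = 0.000385). Across all genes tested, 0.825% were called in this comparison and 0.0489% were called as higher. Groups did not overlap in 4.08% of genes, and in 1.56% the PS19_p16KO group was the higher one, and 1 of 40 members is a share near this background. The 1 call is likewise a single gene of 40. The call did not hold in 12 of the 16 fits that left out a library, with adjusted p-values of 0.0113 to 0.182 over the 16 fits and log2 fold changes of 0.26 to 0.38. The largest adjusted p, 0.182, came without PS19 2, and the call was also lost with only the compared groups in the fit (adjusted p = 0.205) and with the choroid plexus marker level as a covariate (adjusted p = 0.0524). The log2 fold changes in those fits were 0.33 and 0.32. The call held by DESeq2 (adjusted p = 0.00779), without the count filter (edgeR adjusted p = 0.00969), with the replicate block (0.0146), with the batch term (0.0393), and with RLE size factors, total counts or a CPM filter (0.0418 to 0.0468).

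Levels of Slc30a3 in the groups with no transgene were 85.5, 74.5, 82.9 and 83.1 CPM in p16KO, against 70.1, 70.8, 78.6 and 81.8 CPM in WT. The group means were 83.1 ± 2.81 CPM in PS19_p16KO, 66.3 ± 8.62 CPM in PS19, 81.5 ± 4.85 CPM in p16KO and 75.3 ± 5.78 CPM in WT (SD, n = 4 each). In order of level, PS19_p16KO, p16KO and WT were neighbours whose libraries overlapped, and PS19 overlapped WT. The lowest values of all 16 libraries were in PS19 1 and PS19 2. In a bulk sample, fewer cells of a type and less RNA per cell cannot be told apart, and dentate granule cells are a known source of ZnT3. The 12 dentate gyrus markers summed to 743, 814, 797 and 721 CPM in PS19_p16KO, against 626, 619, 723 and 714 CPM in PS19. They summed to 771, 807, 701 and 768 CPM in p16KO and 693 to 722 CPM in WT. PS19 1 and PS19 2 were the lowest of all libraries here too. In contrast, p16KO 2 and PS19_p16KO 2, each the lowest of its group in Slc30a3, had the highest dentate sum of their group. All 12 had positive log2 fold changes in PS19_p16KO against PS19, with a median of 0.22, and 0 were called, although 3 had an unadjusted p under 0.05. The 14 microglial markers summed to 462 to 531 CPM in PS19_p16KO and 568 to 1259 CPM in PS19, against 424 to 517 CPM in p16KO and 396 to 439 CPM in WT, and 8 of them were called lower in PS19_p16KO than in PS19. The 12 CA pyramidal markers summed to 1049 to 1219 CPM in PS19_p16KO and 1005 to 1193 CPM in PS19, which overlap. They summed to 1099 to 1219 CPM in p16KO and 1125 to 1241 CPM in WT. No marker of these lists was at 0 counts, and the part of these cell types in the result for Slc30a3 was not tested.

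**Figure D2:**
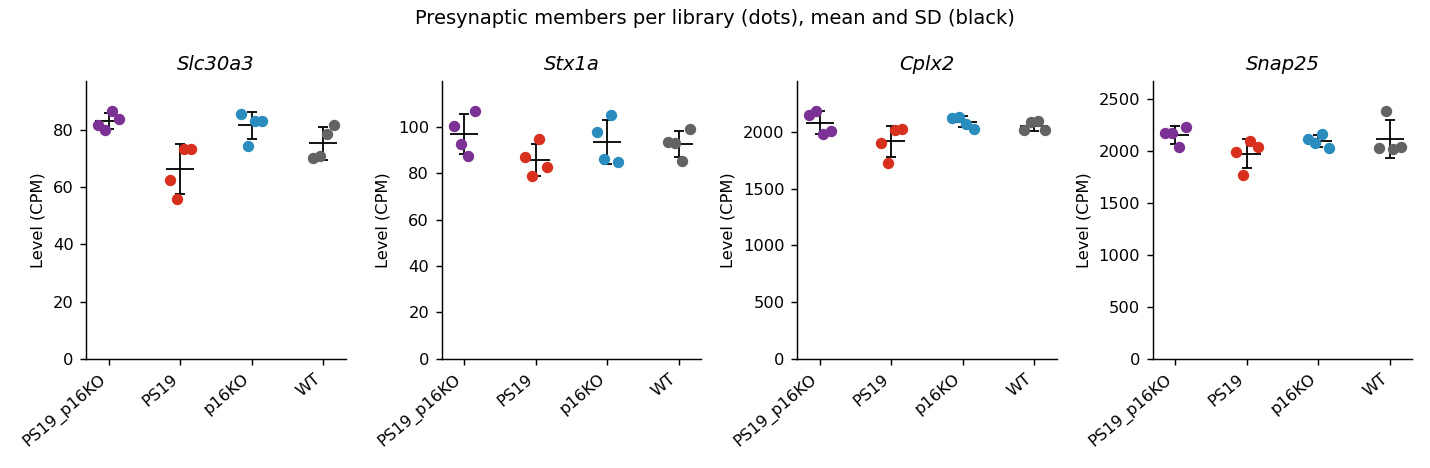
Levels of Slc30a3, Stx1a, Cplx2 and Snap25 in CPM in each library of PS19_p16KO, PS19, p16KO and WT (dots), with the mean and SD of each group (black). For Slc30a3 the PS19 libraries lie between 56.0 and 73.4 CPM and all 4 PS19_p16KO libraries above them, while in the other 3 genes those groups overlap.

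No other member was called between PS19_p16KO and PS19, and 3 more, all presynaptic and all of the fusion machinery, had an unadjusted p under 0.05. With Slc30a3 these were 4 of 40 members, all higher in PS19_p16KO, against 8.59% of all genes tested in either direction and 3.12% in that direction. Stx1a (chr5:135023482-135051100), the syntaxin of the plasma membrane SNARE complex, had 100.4, 92.4, 87.3 and 107 CPM in PS19_p16KO, against 86.9, 78.7, 94.8 and 82.6 CPM in PS19. Its log2 fold change was 0.17 ± 0.08 (edgeR adjusted p = 0.506). Cplx2 (chr13:54371349-54383917) had 2148, 2187, 1981 and 2008 CPM in PS19_p16KO, against 1902, 1729.8, 2014 and 2024 CPM in PS19, a log2 fold change of 0.12 ± 0.05 (edgeR adjusted p = 0.508). Snap25 (chr2:136713453-136782428), the other SNARE of the plasma membrane, had 2175, 2176, 2034 and 2228 CPM in PS19_p16KO, against 1987, 1773, 2097 and 2036 CPM in PS19, a log2 fold change of 0.13 ± 0.06 (edgeR adjusted p = 0.58). In each of these 3 genes the groups overlapped. PS19 2 was the lowest library of both groups for all 3 of them.

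The remaining presynaptic members are given by role, as log2 fold changes in PS19_p16KO against PS19. All 6 genes of the fusion machinery had positive log2 fold changes, the lowest being 0.02 for Syt1, the calcium sensor of fast release, with 0.06 for Cplx1 and 0.07 for Vamp2. All 4 vesicle proteins were positive too, namely the synapsins Syn1 and Syn2, which tether vesicles, at 0.02 and 0.03, the small GTPase Rab3a at 0.09 and Syp at 0.10. Slc17a7, the main vesicular glutamate transporter, had 1892, 1987, 1776 and 1806 CPM in PS19_p16KO, against 1839, 1334, 1802 and 1893 CPM in PS19. PS19 2 stood far below the other PS19 libraries for Slc17a7, and the log2 fold change was 0.12 with a 95% interval of -0.04 to 0.28. For Slc17a6 the value was 0.32, with a wide interval of -0.33 to 0.97. The scaffolds of the active zone had negative values. Bsn, bassoon, had 556, 602, 407 and 527 CPM in PS19_p16KO, against 548, 499.6, 646 and 600.3 CPM in PS19, a log2 fold change of -0.13 with an interval of -0.35 to 0.08. Pclo, piccolo, gave -0.16 with an interval of -0.43 to 0.11, and both genes were lowest in PS19_p16KO 3. The neurexins Nrxn2 and Nrxn3, adhesion proteins of the presynaptic membrane, gave -0.01 and -0.03.

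Postsynaptic members had 0 calls in PS19_p16KO against PS19 by edgeR, 0 with an unadjusted p under 0.05, and 0 by DESeq2. Log2 fold changes of the AMPA receptor subunits were -0.02 for Gria1, 0.04 for Gria2, 0.07 for Gria3 and -0.01 for Gria4, which is prominent in interneurons. Those of the NMDA receptor were 0.06 for Grin1, the subunit every such receptor needs, -0.04 for Grin2a and -0.13 for Grin2b, the subunit that dominates early in life. Grm5, a metabotropic receptor that signals through Gq, gave -0.05. Dlg4 gave 0.03, with a 95% interval of -0.08 to 0.14, and the MAGUK scaffolds Dlg1, Dlg2 and Dlg3 gave 0.03, -0.06 and 0.04. All 3 Shank and all 3 Homer genes, whose products link receptors to the actin cytoskeleton and to calcium stores, were negative, between -0.13 for Homer2 and -0.03 for Homer1 and Homer3. Camk2a gave 0.02 and Camk2b, the beta subunit, 0.13. The neuroligins Nlgn1, Nlgn2 and Nlgn3 gave 0.00, 0.01 and 0.04. In this and every other comparison the 95% interval of 39 of the 40 members stayed within a log2 fold change of 0.5 on either side of 0, which is 1.41-fold, and Slc17a6 was the exception. A p that misses the threshold does not show that levels were equal, and these intervals give the differences that the data allow.

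**Figure D3:**
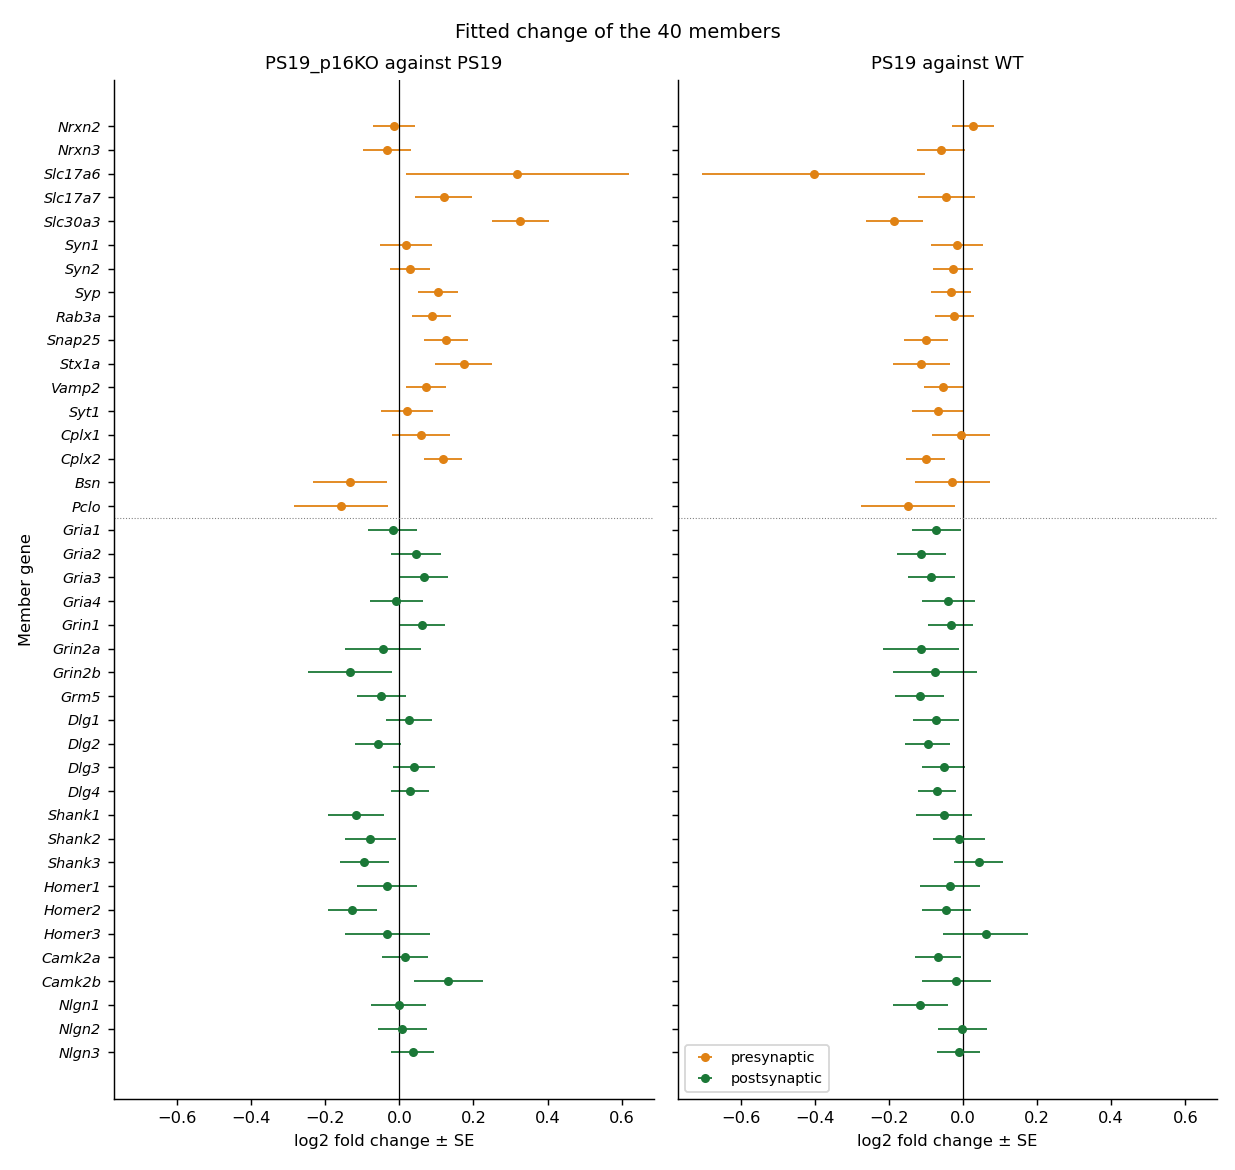
Fitted log2 fold change of each member, with bars of 1 SE, in PS19_p16KO against PS19 (left) and in PS19 against WT (right), with presynaptic members above and postsynaptic members below. On the left most fusion and vesicle genes lie right of 0 and Slc30a3 stands at 0.33, while on the right 37 of the 40 members lie left of 0, most by less than 0.15.

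Presynaptic and postsynaptic members were then set side by side. In PS19_p16KO against PS19, 13 of 17 presynaptic members had a positive log2 fold change, with a median of 0.07, and 10 of 23 postsynaptic members did, with a median of -0.01. The median of all genes tested was 0.00, and 50.6% of them were positive. The difference between both medians was 0.08. Other lists in the same comparison are set beside these values. Of the 14 neuron markers 12 were positive, with a median of 0.08, while 5 of 12 markers of GABAergic neurons were, with a median of -0.07. Of the 50 further presynaptic genes counted below 38 were positive, with a median of 0.04. Of the 60 further genes listed as postsynaptic 40 were positive, with a median of 0.03, so both lists had nearly the same median. The list named postsynaptic also holds genes such as Grm2, a metabotropic receptor that dampens release, so it is not purely postsynaptic. The part of neuron content in the members' values was not tested. The difference between the members' medians was 0.04 without PS19_p16KO 3 and 0.14 without PS19_p16KO 2, and the presynaptic median alone was 0.02 without PS19 2. Per library, the mean log2 CPM of presynaptic minus that of postsynaptic members, set to 0 for the mean of WT, was 0.05 ± 0.06 in PS19_p16KO, -0.03 ± 0.06 in PS19, 0.00 ± 0.05 in p16KO and 0.00 ± 0.05 in WT (SD, n = 4 each). The values ran from -0.03 to 0.11 in PS19_p16KO, -0.08 to 0.05 in PS19, -0.06 to 0.07 in p16KO and -0.07 to 0.03 in WT, so all groups overlapped.

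A pair of libraries, PS19_p16KO 3 and PS19 2, stood low in many members. PS19_p16KO 3 was the lowest library of its group in 32 of the 40 members and the lowest of all 16 libraries in 16, of which 12 were postsynaptic and 4 presynaptic. PS19 2 was the lowest of its group in 28 members and the lowest of all 16 libraries in 20, of which 13 were presynaptic and 7 postsynaptic. Log2 CPM against the WT mean is given next as the median over genes. In PS19_p16KO 3, the library with the most choroid plexus markers, the median was -0.33 for the 16 members with over 10000 bases of exon. It was 0.02 for the 4 members under 3000 bases. Over all genes tested in that library, those with long exons had a median of -0.15 and those with short exons 0.09. Of the 16 long members 12 are postsynaptic and 4 presynaptic. In PS19 2 the median was -0.13 for the long members and -0.23 for the short members, against -0.03 for all long genes tested and 0.05 for all short ones. The part of exon length or of choroid plexus tissue in these values was not tested.

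**Figure D4:**
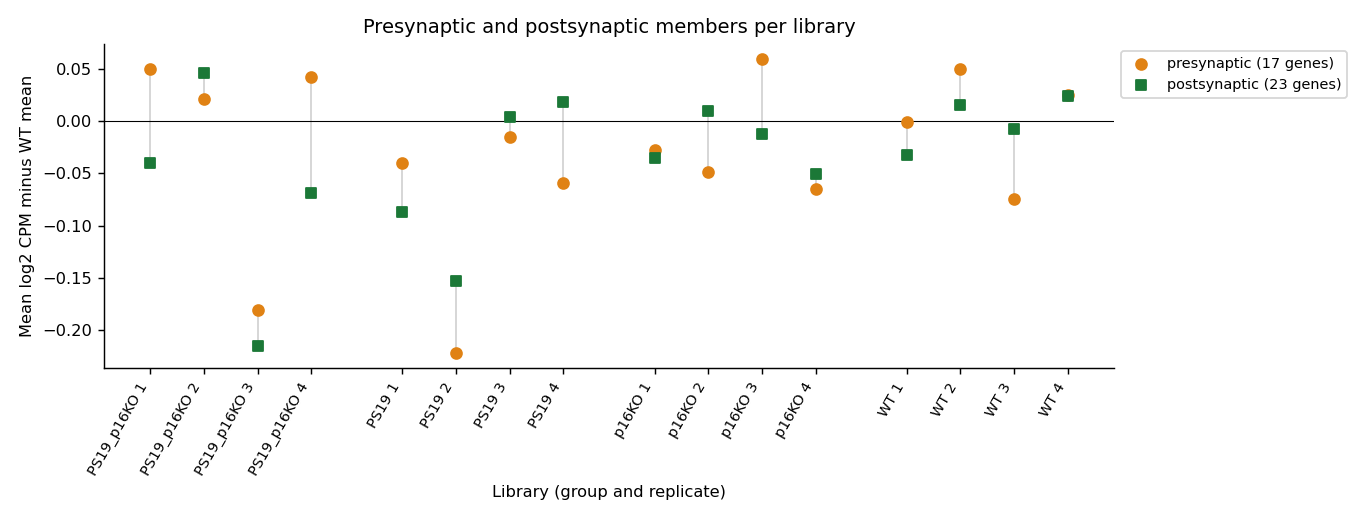
Mean log2 CPM of the 17 presynaptic (circles) and 23 postsynaptic members (squares) in each of the 16 libraries, minus the WT mean, with a line joining both values of a library. PS19_p16KO 3 and PS19 2 lie lowest for both sides, and in every other library both sides lie within 0.10 of 0.

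The comparison of PS19 with WT asks what the tau transgene does with p16 intact. Most members had values slightly below WT, and none was called. Log2 fold changes were negative in 37 of 40 members, with a median of -0.05 on both sides of the synapse, against a median of -0.01 and 48.3% positive among all genes tested. The test called 0 members by edgeR and 0 by DESeq2, against 1.61% of all genes tested by edgeR, and 1 member had an unadjusted p under 0.05, against 9.57%. That member was Slc30a3, with a log2 fold change of -0.19 ± 0.08 (edgeR adjusted p = 0.386) and the values per library given above. Next came Cplx2, at -0.10 ± 0.05 (edgeR adjusted p = 0.578), which had 2019, 2092, 2098 and 2017 CPM in WT. The PS19 values of Cplx2 overlapped these in 1 library, PS19 4, and nearly reached them in PS19 3. Grm5 (chr7:87584168-88134907) had 355, 384, 399.5 and 369 CPM in PS19, against 387, 447, 380.2 and 422 CPM in WT, a log2 fold change of -0.12 ± 0.07 (edgeR adjusted p = 0.643). Groups overlapped in all 40 members, against 5.03% of genes tested whose groups did not. The 3 members with positive values were Homer3 at 0.06, Shank3 at 0.04 and Nrxn2 at 0.03. Homer3 shares exon bases with Ddx49 on the opposite strand, and as no source states whether reads were counted by strand, its reads cannot be told apart from those of Ddx49 there. The same holds for the 9 exon bases that Syn1 shares with its neighbour Araf. Of 14 neuron markers, none of them a member, 13 were negative in PS19 against WT with a median of -0.07 and 0 called, and summed to 5424 to 5855 CPM in PS19 and 5751 to 6155 CPM in WT. Glial markers had positive values in the same comparison. Of 14 microglial markers 13 were positive with a median of 1.24 and 11 were called higher in PS19, all 12 astrocyte markers were positive with a median of 0.20 and 1 was called, and all 12 oligodendrocyte markers were positive with a median of 0.33 and 0 called, although 8 had an unadjusted p under 0.05. The oligodendrocyte markers summed to 3318 to 4427 CPM in PS19 and 2617 to 3780.3 CPM in WT, and none of them was at 0 counts. Without PS19 2 the presynaptic median was -0.02, and the part of neuron or glial content in these values was not tested.

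The comparison of PS19_p16KO with p16KO asks what the transgene does where p16 is missing. The test called 0 members by edgeR and 0 by DESeq2, against 0.0183% of all genes tested, and 1 member had an unadjusted p under 0.05, against 3.65%. That member was Homer2 (chr7:81600481-81707527), with 96.1, 89.2, 75.1 and 89.1 CPM in PS19_p16KO, against 99.1, 101, 96.8 and 90.4 CPM in p16KO. Its log2 fold change was -0.15 ± 0.07 (edgeR adjusted p = 0.999), and the groups overlapped. Shank2 had 164, 184, 139 and 167 CPM in PS19_p16KO, against 177, 179, 185 and 175 CPM in p16KO, and Rab3a had 451, 441, 429.9 and 442 CPM, against 439.5, 397, 417 and 400.1 CPM. Shank2 gave a log2 fold change of -0.13 ± 0.07 and Rab3a one of 0.09 ± 0.05, with adjusted p = 0.999 for both in edgeR and with overlap of the groups. Positive values were found in 11 of 17 presynaptic members, with a median of 0.03, and in 5 of 23 postsynaptic members, with a median of -0.05. Without PS19_p16KO 3 the postsynaptic median was 0.00. Groups overlapped in all 40 members, against 2.80% of genes tested whose groups did not.

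The comparison of p16KO with WT asks what loss of p16 does without the transgene, and no member was called. In p16KO against WT the test called 0 members by edgeR and 0 by DESeq2, against 0% of all genes tested by edgeR and 18 genes by DESeq2, and 0 members had an unadjusted p under 0.05, against 3.99% of genes tested. Both sides had a median log2 fold change of -0.03. All 12 oligodendrocyte markers were positive here too, with a median of 0.26 and 0 called, and their part in the members' values was not tested. Slc30a3 had the smallest p of the members, with a log2 fold change of 0.11 ± 0.08 (edgeR adjusted p = 0.999). Nlgn1, the neuroligin of excitatory synapses, had 98.1, 102, 104 and 97.4 CPM in p16KO, against 101, 119, 103 and 107 CPM in WT, a log2 fold change of -0.10 ± 0.07. Nrxn3 had 206, 234, 229 and 227 CPM in p16KO, against 258, 249, 219 and 222 CPM in WT, a log2 fold change of -0.08 ± 0.07. The libraries overlapped in all 40 members, against 2.94% of genes tested whose groups did not.

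The interaction tests whether the transgene effect differs between p16 genotypes. It called 0 members by edgeR and 0 by DESeq2, against 0.00611% of all genes tested by edgeR, and 0 members had an unadjusted p under 0.05, against 5.44%. Slc30a3 had the smallest p of the members, with an interaction of 0.21 ± 0.11 on the log2 scale with a 95% interval of -0.01 to 0.44 (edgeR adjusted p = 0.956). Snap25 and Rab3a followed, with 0.14 ± 0.08 and 0.12 ± 0.07. Snap25 had 2114, 2079, 2160.0 and 2030.1 CPM in p16KO and 2024, 2386, 2017 and 2035 CPM in WT, where WT 2 stood apart from the other 3 libraries. Rab3a had 435, 372, 428 and 425 CPM in PS19 and 428, 427, 402 and 429.7 CPM in WT. Positive interactions were found in 15 of 17 presynaptic members, with a median of 0.07, and in 14 of 23 postsynaptic members, with a median of 0.02, against 52.1% of all genes tested. These values are built from the same libraries as the comparisons above and add no separate evidence.

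Averaged over p16 genotypes, the transgene effect called 0 members by edgeR and 0 by DESeq2, against 0.391% of all genes tested, and 2 members had an unadjusted p under 0.05, against 10% of all genes tested. Both were postsynaptic. Grm5 averaged -0.11 ± 0.05 (edgeR adjusted p = 0.437), and its remaining values were 368, 400.4, 319 and 371 CPM in PS19_p16KO and 373, 415, 396 and 384 CPM in p16KO. Dlg2 (chr7:90476672-92449247), the scaffold PSD-93, averaged -0.09 ± 0.04 (edgeR adjusted p = 0.484). Its levels were 349, 367, 298 and 346 CPM in PS19_p16KO and 333, 353, 368 and 361 CPM in PS19, against 359.8, 376, 364 and 346 CPM in p16KO and 370.3, 399.9, 348 and 393 CPM in WT. Homer2 came next at -0.10 ± 0.05, with 89.0, 97.3, 91.7 and 104 CPM in PS19 and 99.6, 97.3, 104 and 93.2 CPM in WT. Averaged over the transgene, the effect of p16 loss called 0 members by edgeR, against 0.226% of all genes tested, and 1 member had an unadjusted p under 0.05, against 7.96%. That member was Slc30a3, at 0.22 ± 0.05 on the log2 scale (edgeR adjusted p = 0.133), and DESeq2 called it (adjusted p = 0.0273). Cplx2 followed at 0.07 ± 0.04, with 2119.7, 2136, 2073 and 2028 CPM in p16KO. Shank1, a Shank scaffold, gave -0.10 ± 0.05, with 718, 684, 535 and 687 CPM in PS19_p16KO and 696, 694, 715 and 675 CPM in p16KO, against 714, 657, 708 and 765 CPM in PS19 and 743, 659, 763 and 782 CPM in WT. For Shank1, Grm5, Dlg2 and Homer2 the groups compared overlapped, and PS19_p16KO 3 was the lowest library.

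Further genes of the same pathway gave few calls. Of 50 further presynaptic genes, 0 were called in any of the 7 comparisons by edgeR or DESeq2, and 5 had an unadjusted p under 0.05 in PS19_p16KO against PS19, all higher in PS19_p16KO, where 8.59% of all genes tested had such a p and 3.12% were higher. Of 60 further genes listed as postsynaptic, 0 were called in any comparison by edgeR. In PS19_p16KO against PS19, 8 of them had an unadjusted p under 0.05, 6 higher and 2 lower. DESeq2 called Grm2 in that comparison and in the averaged p16 effect. Grm2 dampens release, so this call is not read as one of the postsynaptic side. Of 12 genes listed for glutamate supply and clearance, 1 was called by edgeR, in PS19_p16KO against PS19, where 0.825% of all genes tested were called. In that comparison 4 had an unadjusted p under 0.05, all lower in PS19_p16KO, against 8.59% of all genes tested in either direction. Of these 4, Slc1a4 is a transporter of serine and alanine. The gene called was Slc1a2, the astrocytic transporter GLT-1 that removes most synaptic glutamate. It had 2743, 2938, 2149 and 2654 CPM in PS19_p16KO, against 3334, 3761, 3119.6 and 3205 CPM in PS19. It had 2550.3 to 3005 CPM in p16KO and 2773 to 3072 CPM in WT. The PS19 libraries all stood above the PS19_p16KO libraries, and the log2 fold change was -0.36 ± 0.08 (edgeR adjusted p = 0.0458). The call did not hold in 13 of 16 fits that left out a library, with adjusted p-values up to 0.24 without PS19 2. The 12 astrocyte markers, of which Slc1a2 is 1, summed to 6437 to 7425 CPM in PS19_p16KO and 7799 to 10563 CPM in PS19. They summed to 6583 to 7658 CPM in p16KO and 7121 to 7405 CPM in WT, none at 0 counts. Markers in this sum differed to unlike degrees. Gfap had means of 619 CPM in PS19_p16KO and 1874 CPM in PS19, Aqp4 154 and 237 CPM, and Glul 1608 and 1612 CPM. The part of the astrocyte markers in the value of Slc1a2 was not tested.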

How the data were processed

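The deposited table holds whole-number counts per gene for 16 libraries, which the authors left unnormalised. Per the submitters' processing notes, the tools were Trimmomatic 0.36, STAR 2.5.2b, featureCounts from Subread 1.5.2 and DESeq2, with the build GRCm38; the notes give no order or settings. The gene annotation and the strand setting of the counting are not stated in those notes. The 92 spike-in rows were left out, and 49412 of 49671 gene rows were matched to a symbol. Exon lengths came from GENCODE M21 on GRCm38.

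Genes were filtered with filterByExpr at a minimum count of 10 and fitted together by edgeR 4.0.16 (robust quasi-likelihood, TMM, R 4.3.3) with a mean for each of the 4 groups. The 7 comparisons were adjusted by Benjamini-Hochberg over all genes tested, with calls at an adjusted p under 0.05. Intervals cover 95%. Libraries of a group differed beyond sampling noise (chi-square per degree of freedom 4.56 to 24.3), so no pair was merged as 1 library deposited again, which does not show that libraries came from separate mice. Each member had at least 183 counts in every library, and where the libraries of a group lie close together, counting error may be as large as their spread. Intervals and counts say nothing of errors before counting.

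The members and the lists of other genes were chosen with earlier results of these data known. Values per library are given for members called in any comparison, for the 3 members with the smallest p in each comparison and for the highest and lowest member per length on each side of the synapse. Other members given by library, such as Slc17a7 and Bsn, were chosen after their values were seen. Alternatives were RLE size factors, total counts, other filters, replicate, library-name suffix and choroid plexus terms, only the compared groups, DESeq2 1.42.0, and leaving out each library. The libraries left out together were chosen after seeing the data.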

Additional observations from a re-analysis of the deposited data

Results flagged for a closer look

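In 11 of 172 groups of 4 values, counted over members and summary values, a library stood far from the other 3; chance gives about 5 in 100. In PS19 2, Slc17a7 was low at 1334 CPM (next library 1802), Rab3a at 372 CPM (next 425), Vamp2 at 930.4 CPM (next 1037) and Nlgn2, the neuroligin of inhibitory synapses, at 252 CPM (next 307). In PS19_p16KO 3, Nlgn2 was low at 265 CPM (next 308), and the mean log2 CPM of presynaptic members stood at -0.18 against the WT mean (next 0.02). The remaining 5 lay in other libraries. Dlg3 was high in PS19_p16KO 2 at 319 CPM (next 286), and Pclo was high in PS19 3 at 243 CPM (next 220.4). Gria3 was low in p16KO 1 at 220.3 CPM (next 233), Rab3a was low in WT 3 at 402 CPM (next 427), and Snap25 was high in WT 2 at 2386 CPM (next 2035).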

How the results depend on the processing

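The call of Slc30a3 in PS19_p16KO against PS19 was the only call among the members, and its edgeR adjusted p, 0.0477, lay just under the threshold. Leaving out p16KO 1, 3 or 4 or WT 1, 2 or 3, all outside the comparison, lost the call. The edgeR adjusted p was then 0.0503 to 0.0666, and the log2 fold change 0.33 each time. The number of member calls also became 0 with the choroid plexus covariate and with only the groups compared. It was 0 without PS19 2 and PS19_p16KO 3 (adjusted p = 0.304 in edgeR) and without the 3 libraries highest in choroid plexus markers (adjusted p = 0.126 in edgeR). Leaving out a library gave 0 to 1. Its log2 fold change stayed positive in each of these fits, from 0.24 to 0.38. In the averaged p16 effect, 0 members became 1, Slc30a3, without the count filter, with the replicate block and by DESeq2, and leaving out a library gave 0 to 1. In PS19_p16KO against p16KO its log2 fold change, 0.03, reversed to -0.014 without p16KO 2, within a range of -0.014 to 0.048. The difference between presynaptic and postsynaptic medians in PS19_p16KO against PS19, 0.08, was 0.039 without PS19 2 and PS19_p16KO 3, and 0.044 to 0.137 when a library was left out.

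Counts over all genes moved more. For PS19_p16KO against PS19, 135 genes became 87 with the suffix term, 8 with only the groups compared and 278 by DESeq2. The 135 became 62 without the 3 choroid-rich libraries, 19 without PS19 2 and PS19_p16KO 3, and 29 to 347 without a library. For PS19_p16KO against p16KO, 3 became 6 with the choroid covariate, 7 by DESeq2, and 2 to 5 without a library. For PS19 against WT, 264 became 70 with only the groups compared and 124 to 438 without a library. For p16KO against WT, 0 became 4 without the filter, 4 with the choroid covariate, 9 with only the groups compared, 18 by DESeq2, 7 without the choroid-rich libraries, and 0 to 8 without a library. For the interaction, 1 became 6 with RLE factors, 20 without the filter, 5 with the block and 13 with the suffix term. It became 5 with the choroid covariate, 88 by DESeq2, and 1 to 160 without a library. For the averaged transgene effect, 64 became 18 with the suffix term, 144 with the choroid covariate and 179 by DESeq2. It became 31 without the choroid-rich libraries, and 15 to 206 without a library. For the averaged p16 effect, 37 became 23 with the block, 20 with the suffix term, 107 by DESeq2, and 10 to 119 without a library. The cause of these shifts was not tested.

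Same-numbered libraries of different groups correlated between -0.39 and 0.22 in their deviations, and 6 of 24 pairs were over 0.1. Differently numbered libraries correlated between -0.33 and 0.56, and 18 of 72 pairs were over 0.1. Same-numbered libraries were thus no more alike than others, which cannot show how the libraries were prepared. With the replicate block, PS19_p16KO against PS19 had 134 calls over all genes and 1 member call. Fits with only the compared groups were not run for the interaction and the averages, which use all groups.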

Other observations

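Among pathway genes outside the 40 members, Grm2, a metabotropic receptor that dampens release and is prominent in the dentate gyrus, had 82.1, 80.9, 80.2 and 90.9 CPM in PS19_p16KO, against 73.5, 62.6, 68.0 and 75.2 CPM in PS19. The groups did not overlap, and the log2 fold change was 0.26 ± 0.07 (edgeR adjusted p = 0.0796; DESeq2 adjusted p = 0.0247). Group means without the transgene were 83.7 CPM in p16KO and 74.3 CPM in WT. Synpr, a synaptophysin relative of vesicles that is known from mossy fibres, had 170 to 195 CPM in PS19_p16KO and 151 to 168 CPM in PS19, again without overlap (edgeR adjusted p = 0.26). Both genes were named after their values were seen. The sum of the dentate gyrus markers was 721 to 814 CPM in PS19_p16KO and 619 to 723 CPM in PS19, and its part in these values was not tested. Slc1a4, a transporter of serine and alanine, had 66.5 to 76.7 CPM in PS19_p16KO and 81.0 to 98.9 CPM in PS19, a log2 fold change of -0.33 (edgeR adjusted p = 0.074; DESeq2 adjusted p = 0.0188).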
